A study of Arabidopsis thaliana with 9 samples.

Results

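The genes described here are Arabidopsis preys that were well read with each of 3 baits in a yeast two-hybrid screen read out by sequencing. A gene was taken if it had at least 100 CPM (reads per 1000000 reads of its library) in each of 9 libraries. This gave 92 of the 10224 genes in the deposited table, and 80 remained once 12 named genes were left out, among them the glyceraldehyde-3-phosphate dehydrogenases GAPC1 and GAPC2, the catalase CAT3, the aldolase FBA5 and polyubiquitin UBQ10. The 80 genes were thus chosen by their CPM in these same 9 libraries, and that they were read in every library is not a result.

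In a two-hybrid screen the bait is joined to the DNA-binding part of a transcription factor and each cDNA insert, the prey, to its activating part, and yeast cells in which both come together grow without histidine. Screens of this kind are known to return some preys with many baits, whether because the prey binds many proteins, activates the reporter without the bait, or is frequent in the cDNA library. The baits were PKS5, SCAB1 and SOS2. PKS5 and SOS2 are protein kinases of one plant family that is switched on by calcineurin B-like calcium sensors, and SCAB1 is a protein that binds actin filaments. Each bait had 3 libraries, at recovery times of 0, 2 and 4 h, and all 9 came from an Arabidopsis cDNA library in yeast grown on synthetic medium lacking tryptophan, leucine and histidine. The medium held 3-AT, a competitive inhibitor of the HIS3 enzyme, at 1 mM, and over 3000 colonies were taken for a sample. No library taken before selection and no library with an empty bait was analysed here, so the level of a prey could not be set against how frequent its insert was at the start. The labels do not say that the 3 libraries of a bait came from separate cultures, and each differs in recovery time, so p-values measure the spread between these libraries, which may be technical. More colonies with a prey and more plasmid copies per colony cannot be told apart.

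Libraries held 1640114 to 3288437 reads with a median of 2110556, so that the 3 reads a count of 0 allows were 0.912 to 1.83 CPM. This limit takes in counting error alone, as copies made by PCR are no separate molecules. Between 180 and 861 genes of a library reached 100 CPM. The 80 genes held 16.8, 15.4 and 16.1% of the reads of the PKS5 libraries, 25.8, 23.6 and 26.5% of those of SCAB1 and 14.6, 13.2 and 11.8% of those of SOS2, in the order 0, 2 and 4 h. In no library did the 80 genes hold most of the reads, while the 12 genes left out held 24.3 to 58.3%. The shares of the 80 genes rested partly on few of them. In each library the 2 best read took 36.5 to 54.8% of the reads of the 80 with PKS5, 36.2 to 52.3% with SCAB1 and 17.1 to 25.7% with SOS2. The library that kept most genes near the limit was PKS5 at 2 h, which was the lowest of the 9 for 37 of the 80 genes, followed by SOS2 at 4 h for 17 and SCAB1 at 2 h for 14.

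The nearest genes on either side of the limit differed little. Just inside it were AT1G66820, with 101.6 CPM in its lowest library, AT5G57760, with 103.1, and the nitrilase NIT1, with 103.6. Just outside were the S-adenosylmethionine synthetase MTO3, with 99.5 CPM, AT5G64400, with 97.2, and the metallothionein MT3, with 97.0. A limit of 50 CPM would have taken 157 genes, and one of 200 CPM would have taken 41.

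Named protein classes were read from the gene names in a RefSeq table, in which 50 of the 80 genes had a descriptive name and 30 did not. Of 17 classes, 16 had at least 1 of the 80 genes, and 45 genes (56.2%) fell in at least 1 class, against 13.5% of the 3811 genes with enough reads to be tested. The classes were written with the members known, so this difference is no measure of enrichment. Genes without a descriptive name could not be placed, so the class counts are lower bounds and the order of classes could change with a fuller annotation. By these names the classes with most members were cell wall and secreted proteins, with 6 of 81 tested genes, and 4 classes with 5 members each. Those were glycine-rich proteins (5 of 15 tested), lipid carriers and membrane traffic (5 of 12), stress and cold responsive proteins (5 of 24) and hormone synthesis and response (5 of 69). Metallothioneins and metal chaperones had 4 of 7, and aquaporins and translation factors 3 each, of 16 and 17. Transcription factors had 2 of 100 tested genes, the ubiquitin pathway 2 of 53 and protein kinases 2 of 34, while the 45 tested redox enzymes had none.

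**Figure D1:**
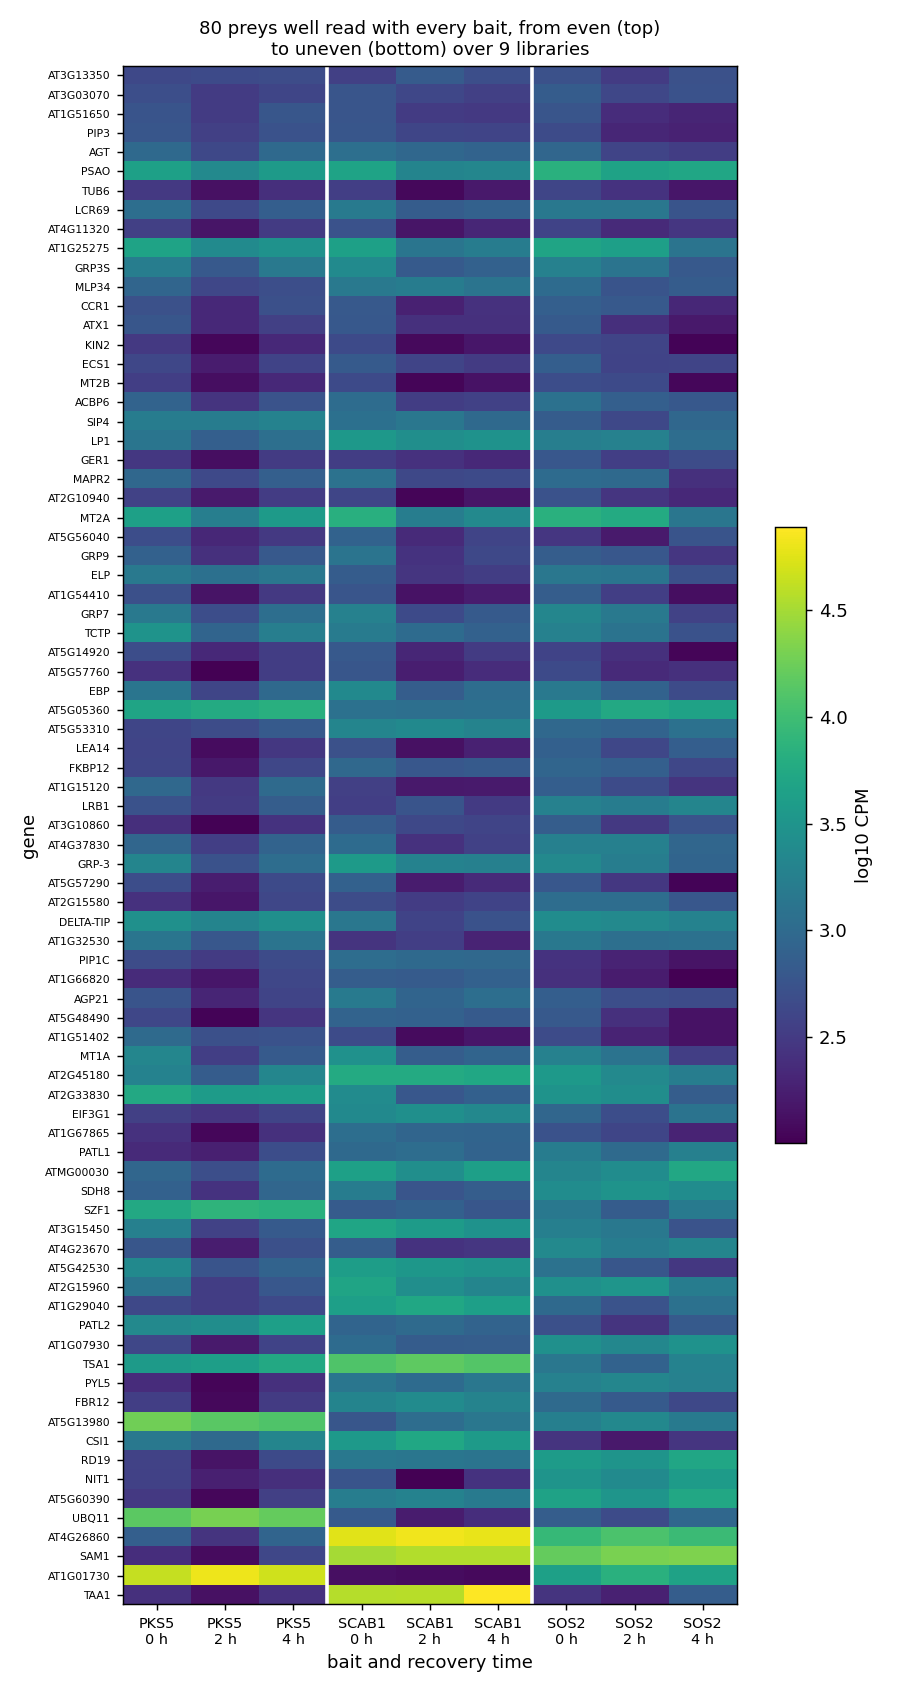
Reads of the 80 preys in each of the 9 libraries, as log10 CPM in colour, with genes ordered by the ratio of their highest to their lowest library and libraries by bait and recovery time. The ratio runs from 2.16 at the top to 556 at the bottom, and rows near the bottom are bright with 1 or 2 baits only.

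In plain CPM, before TMM scaling, the 80 genes ranged from nearly level to sharply bait-dependent. The highest library exceeded the lowest by 2.16-fold to 556-fold with a median of 6.85-fold. It was below 5-fold for 24 genes, from 5-fold to 10-fold for 33, from 10-fold to 50-fold for 18 and at least 50-fold for 5. Bait means lay within 2-fold of each other for 31 genes and differed more than 10-fold for 11. Those shares follow partly from the limit itself, which removed any gene that was rare with a bait.

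Whether a gene differed between baits was tested with limma on log2 reads scaled by TMM, a method that matches libraries on their typical gene, by an F test over the 3 baits. It passed for 47 of 80 at an adjusted p under 0.05, 58.8%, against 45.1% of all genes tested (1720 of 3811). Since the genes were chosen on these same reads, nothing is read from that difference about the set. The count was 31 without SCAB1 replicate 3 and 31 to 50 over the libraries left out in turn, and 19 of the 47 calls held in every one of 16 alternatives. A log2 contrast is the log2 level with a bait minus the mean of that with the other baits, and the 3 contrasts share libraries. With PKS5, 8 genes were higher and 24 lower, against 5.98% and 21.7% of all genes tested. With SCAB1, 24 were higher and 10 lower, against 14.5% and 20.8%. With SOS2, 9 were higher and 15 lower, against 27.2% and 13.5%. Median log2 differences over the 80 genes were -0.19, 0.39 and -0.23 for PKS5, SCAB1 and SOS2, and over all genes tested -0.14, -0.21 and 0.16.

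The balance of higher and lower calls depended on the scaling. When genes that took over 5% of a library were left out of the library size, 19 genes were higher and 13 lower with PKS5, 20 and 17 with SCAB1 and 14 and 15 with SOS2. With library size alone 19 were higher and 10 lower with SOS2. By plain CPM without any scaling beyond the library total, every PKS5 library was above all others for 8 of the 80 genes (3.12% of all genes tested) and below them for 14 (5.06%). Every SCAB1 library was above for 19 (7.56%) and below for 5 (3.1%), and every SOS2 library was above for 10 (21%) and below for 5 (0.892%).

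The 5 glycine-rich members were well read with all baits by the rule that chose them, and none was called in the main F test over baits. That does not show that their levels were equal, and the members tested in distinct reads were called there. They are GRP-3 and GRP3S, small secreted proteins, GRP7 and CCR1, RNA-binding proteins whose transcripts follow the circadian clock, and GRP9. Together they took 0.213 to 1.00% of the reads of a library. GRP7 had 1496, 488 and 1109 CPM with PKS5 at 0, 2 and 4 h, 1854, 447 and 665 with SCAB1 and 2129, 1469.8 and 376 with SOS2. CCR1 had 525, 218 and 512 CPM with PKS5, 651, 189 and 263 with SCAB1 and 757, 655 and 213 with SOS2. The libraries of each bait overlapped with those of both others for both genes. Within a bait 1 library could be several times another in plain CPM, which takes in differences in scaling between whole libraries.

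GRP3S stood at 1669, 639 and 1482 CPM with PKS5, 2435, 663 and 788 with SCAB1 and 1851, 1306 and 643 with SOS2, and its bait means were 1264 ± 549, 1295 ± 989 and 1266 ± 605 CPM (SD, n = 3 each). GRP9 had 796, 253 and 648 CPM with PKS5, 1309, 266 and 426 with SCAB1 and 710.3, 610.5 and 291 with SOS2. Of these 5 genes GRP-3 differed most. It had 3756, 1912 and 1824 CPM with SCAB1, against 2067, 534 and 1083 with PKS5 and 2305, 1676 and 854 with SOS2, a log2 contrast of 1.25 (SE 0.46, limma adjusted p = 0.037). That call held in 9 of 16 alternatives. The limma adjusted p was 0.154 and 0.127 when SCAB1 replicate 2 or 3 was left out, 0.0519 and 0.103 when PKS5 replicate 2 or 3 was, 0.0543 for library size alone, 0.148 when genes that took over 5% of a library were left out of the library size and 0.222 for distinct reads. Over all 15 tested glycine-rich genes the F test of limma called 0, with 1 at an unadjusted p under 0.05. The count depended on the measure, being 5 of 7 with distinct reads and 4 of 7 with at least 100 reads, and 0 to 2 in the other alternatives. With distinct reads the F test called GRP-3, GRP3S, GRP7 and CCR1, and GRP9 was not tested. All of those called were lower with SOS2, with log2 contrasts of -0.43, -0.34, -0.53 and -0.40 (limma adjusted p = 0.00353, 0.0213, 0.000385 and 0.0147). GRP7 and CCR1 were also higher with SCAB1, with 0.37 and 0.44 (limma adjusted p = 0.0229 and 0.0214). The other 10 tested glycine-rich genes had a median of 12.9 CPM over the 9 libraries and at most 91.2, for GRP2, a cold shock domain protein.

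Metallothioneins, small cysteine-rich proteins that bind copper and zinc, were the other class of at least 3 members without a call in the F test. The 4 members were MT2A, MT1A, MT2B and the copper chaperone ATX1, which hands copper to copper-pumping ATPases. MT2A had 4455, 1754 and 3780.3 CPM with PKS5, 6619, 1691 and 2286 with SCAB1 and 6901, 5859.9 and 1385 with SOS2. The 95% interval of its log2 contrast was -1.04 to 1.03 for PKS5, -0.94 to 1.10 for SCAB1 and -1.13 to 0.97 for SOS2. Differences within those intervals are not excluded here.

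MT1A had 2134, 349.6 and 662 CPM with PKS5, 2903, 709.6 and 864 with SCAB1 and 1878, 1261 and 347 with SOS2, and the 0 h library was the highest with every bait. MT2B had 347, 130.2 and 220.1 CPM with PKS5, 446, 111 and 139.6 with SCAB1 and 491, 449 and 115 with SOS2. ATX1 had 594, 220.1 and 359.9 CPM with PKS5, 625, 256 and 255 with SCAB1 and 671, 248 and 161 with SOS2. For all 4 genes the baits overlapped in plain CPM and the spread lay between libraries of 1 bait. That spread takes in differences in scaling between whole libraries. The TMM factor was 1.39 for PKS5 at 0 h and 0.438 at 2 h, and 1.72 and 0.564 for SCAB1. MT3 missed the limit by a small margin, and the others of the 7 tested, MT1C and the copper chaperone CCH, averaged 43.1 CPM and 41.2 CPM. The F test of limma called 0 of these 7 genes, with 0 at an unadjusted p under 0.05, and 0 or 1 in each alternative other than at least 100 reads, which called 4. Similar genes such as GRP-3 and GRP3S, GRP7 and CCR1, the metallothioneins, or SAM1 and MTO3 may share reads, and how they were divided is not stated in the sources used here.

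**Figure D2:**
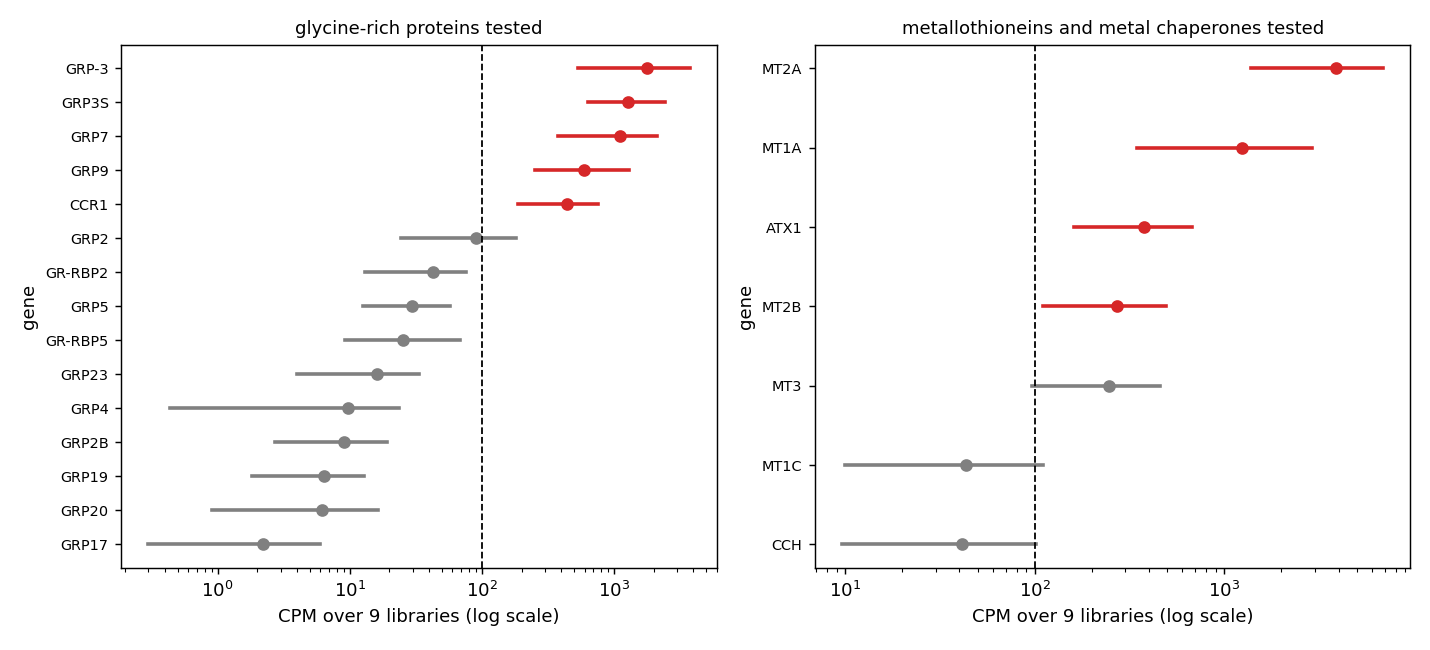
Mean CPM over 9 libraries (points, log scale) and the range from the lowest to the highest library (lines) for every tested glycine-rich gene (left) and every tested metallothionein or metal chaperone gene (right). Members are red, other genes grey, and the dashed line marks 100 CPM. The 5 red glycine-rich genes lie between 442 and 1779 CPM on average, and the grey ones at 91.2 CPM or less. The lowest library of GRP17 is at 0, which a log axis cannot show, and stands at the left end of its line. On the right, the lines of MT3, MT1C and CCH cross the limit.

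Aquaporins, the water channels of plant membranes, had all 3 members called in the F test. DELTA-TIP, of the vacuole membrane, was lower with SCAB1. It had 1409, 390.4 and 540.2 CPM with SCAB1, against 2842, 2006 and 2777 with PKS5 and 2529, 2278 and 1919.8 with SOS2, so that each SCAB1 library lay below all others (log2 contrast -1.55, SE 0.45, limma adjusted p = 0.00869). With distinct reads the contrast was 0.28, of the opposite sign, and was not called (limma adjusted p = 0.0895). PIP1C, of the plasma membrane, was higher with SCAB1 and lower with SOS2. It had 1084, 989.8 and 962 CPM with SCAB1, 479, 321 and 462 with PKS5 and 266, 198 and 142 with SOS2, 3 ranges that did not overlap. The log2 contrasts were 2.19 for SCAB1 (limma adjusted p = 0.000435) and -2.18 for SOS2 (limma adjusted p = 0.000121). Neither passed in distinct reads (limma adjusted p = 0.892 and 0.624). PIP3, also of the plasma membrane, was among the most even genes, at 464, 206 and 194 CPM with SOS2, against 601, 359 and 536 with PKS5 and 598, 404 and 395 with SCAB1. Its log2 contrast for SOS2 was -1.31 (limma adjusted p = 0.00951), which did not pass when SOS2 replicate 2 was left out (limma adjusted p = 0.0592) or for library size alone (limma adjusted p = 0.257). The F test calls held in 10 of 16 alternatives for DELTA-TIP and in 10 of 16 for PIP3. The limma adjusted p of DELTA-TIP was 0.0828 when PKS5 replicate 2 was left out and 0.0926 in distinct reads, and that of PIP3 was 0.133 when SOS2 replicate 2 was left out and 0.494 for library size alone. Of the 13 other tested aquaporins, 2 were called by the F test, and PIP2E was the best read, at 228 CPM on average.

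Cell wall and secreted proteins had 6 members, of which 3 were called over baits, against 42 of the 81 tested genes of the class. AGP21, an arabinogalactan peptide, was higher with SCAB1, with 1577, 854 and 1102 CPM with SCAB1, against 573, 200.2 and 396 with PKS5 and 734, 499 and 467 with SOS2 (log2 contrast 1.71, SE 0.43, limma adjusted p = 0.00292). The lipid transfer protein LP1 was higher with SCAB1 too, with 3483, 2665 and 2953 CPM with SCAB1, against 1342, 761 and 1131 with PKS5 and 1752, 1856 and 1098 with SOS2 (log2 contrast 1.60, SE 0.50, adjusted p = 0.0156). Each SCAB1 library lay above all others for both genes, but neither passed in distinct reads (limma adjusted p = 0.263 and 0.115). LP1 also missed the threshold when SCAB1 replicate 2 or 3 was left out (limma adjusted p = 0.0855 and 0.105). ELP, an extensin-like protein, was lower with SCAB1, at 439.8 ± 227 CPM with SCAB1, against 1354 ± 165 with PKS5 and 1087 ± 501 with SOS2 (SD, n = 3 each). Its call (limma adjusted p = 0.0295) held in 8 of 16 alternatives. When SCAB1 replicate 1, 2 or 3 was left out the limma adjusted p was 0.149, 0.0763 and 0.0825, and when PKS5 or SOS2 replicate 2 was it was 0.0984 and 0.103. It was 0.0643 with relative log expression factors, 0.0722 with no filter and 0.838 in distinct reads, where the contrast was 0.05.

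The other 3 secreted proteins were not called by the F test. LCR69, a plant defensin, had 1115, 444 and 736 CPM with PKS5, 1570.4, 705 and 802 with SCAB1 and 1444, 1415 and 567 with SOS2. GER1, a germin-like protein, had 618, 349 and 475 CPM with SOS2, above every library of PKS5, at 298, 129.9 and 318, and of SCAB1, at 341, 262 and 220.1. After TMM scaling, which moves libraries against each other, the log2 contrast was 0.47 and was not called (SE 0.41, limma adjusted p = 0.414). GASA14 (AT5G14920), of the gibberellin-stimulated family, had 251 ± 135 CPM with SOS2, against 344 ± 133 with PKS5 and 389 ± 225 with SCAB1, and was lower with SOS2 in the contrast (limma adjusted p = 0.0272). It did not pass when PKS5 replicate 2 or SCAB1 replicate 3 was left out (limma adjusted p = 0.0792 and 0.0709), nor for library size alone (0.481) or library size less the genes that took over 5% of a library (0.0771).

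Stress and cold responsive proteins had 1 of 5 members called over baits, against 8 of the 24 tested genes of the class. The cold-induced KIN2 had 302, 115 and 218 CPM with PKS5, 452, 119 and 151 with SCAB1 and 442, 394 and 108 with SOS2. The dehydrin HIRD11 (AT1G54410) had 509, 143 and 308 CPM with PKS5, 584, 139 and 169.5 with SCAB1 and 717, 346 and 129 with SOS2. In the F test of limma the adjusted p was 0.961 for KIN2 and 0.933 for HIRD11, and the baits overlapped. LEA14, a late embryogenesis abundant protein, had 785, 422 and 741 CPM with SOS2, against 397, 128 and 298 with PKS5 and 523, 135 and 188 with SCAB1 (F test, limma adjusted p = 0.153). MT1A, given above, entered this class through its synonym LIGHT STRESS-REGULATED 4.

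RD19, a cysteine protease induced by drought, was called. It had 3906, 3104 and 5202 CPM with SOS2, against 1444, 1367 and 1297 with SCAB1 and 375, 143 and 452 with PKS5, and the 3 baits did not overlap. The log2 contrast was 2.24 for SOS2 (SE 0.53, limma adjusted p = 0.00137), which missed the threshold when SOS2 replicate 3 was left out (limma adjusted p = 0.0537). For PKS5 it was -2.97 (limma adjusted p = 1.73e-05) and passed in 16 of 16 alternatives. CP2 (AT4G11320), the other cysteine protease among the 80 genes, was not called (F test, limma adjusted p = 0.876), at 276 ± 114 CPM with PKS5, 298 ± 211 with SCAB1 and 299 ± 79.2 with SOS2 (SD, n = 3 each).

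Translation factors recognised by their names included 2 genes that were higher with SCAB1 and lower with PKS5. FBR12, an isoform of the factor eIF5A, had 2029.6, 2516 and 1984 CPM with SCAB1, against 346, 116 and 324 with PKS5 and 1015, 662 and 432 with SOS2. EIF3G1, a subunit of the initiation factor eIF3, had 2343, 2748 and 2252 CPM with SCAB1, against 358, 287 and 392 with PKS5 and 904, 484 and 1276 with SOS2. In both genes every SCAB1 library lay above and every PKS5 library below all others. The log2 contrast for SCAB1 was 2.86 in FBR12 (SE 0.46, limma adjusted p = 2.68e-05) and 2.56 in EIF3G1 (SE 0.57, limma adjusted p = 0.00103). For PKS5 it was -2.30 in FBR12 (limma adjusted p = 0.000104) and -1.95 in EIF3G1 (limma adjusted p = 0.00502). Those of EIF3G1 did not pass in distinct reads (limma adjusted p = 0.377 and 0.679). TCTP, a conserved growth regulator, overlapped between baits, with 3039, 869 and 1751 CPM with PKS5, 1605, 1019 and 807 with SCAB1 and 1887, 1271 and 535 with SOS2 (F test, limma adjusted p = 0.309). Of the 17 tested translation factors 11 were called by the F test.

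Hormone genes had 4 of 5 members called by the F test, against 37 of the 69 tested genes of the class. TAA1, an aminotransferase that starts auxin synthesis from tryptophan, had 36743, 37793 and 77009 CPM with SCAB1, against 255, 138 and 259.9 with PKS5 and 274, 185 and 715 with SOS2, the widest range of the 80 genes (log2 contrast 7.78, SE 0.79, limma adjusted p = 3.84e-08). NIT1, a nitrilase that can make auxin from indole acetonitrile, had 3135, 2452 and 3844 CPM with SOS2, against 369, 183 and 251 with PKS5 and 564, 104 and 271 with SCAB1 (log2 contrast 3.20, SE 0.53, limma adjusted p = 2.49e-05, called in 16 of 16 alternatives). PYL5, a receptor of abscisic acid, had 237, 111 and 253 CPM with PKS5, against 1359, 1035 and 1420.02 with SCAB1 and 1870.1, 2151 and 1873 with SOS2 (log2 contrast -3.01, SE 0.43, limma adjusted p = 6.77e-06, and 0.182 in distinct reads). TAA1 stood apart with SCAB1 and NIT1 with SOS2, while the 3 baits did not overlap for PYL5, PKS5 being lowest. TAA1 had too few distinct reads to be tested with them.

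DRM2 (AT2G33830), a dormancy-associated gene, was higher with PKS5, with 5558, 3887 and 3989.9 CPM with PKS5, against 2473, 611 and 771 with SCAB1 and 3098, 2651 and 717 with SOS2 (log2 contrast 1.84, SE 0.52, limma adjusted p = 0.00948). It did not pass when PKS5 replicate 2 was left out (limma adjusted p = 0.129) or in distinct reads (limma adjusted p = 0.847). EBP, a transcription factor of the ethylene response, was not called, at 908 ± 470.2 CPM with PKS5, 1393 ± 862 with SCAB1 and 912 ± 509.6 with SOS2 (SD, n = 3 each; F test, limma adjusted p = 0.145).

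Lipid carriers had 3 of 5 members called over baits, against 7 of the 12 tested genes of the class. The patellins are Sec14-type proteins that bind phosphoinositides at membranes, and PATL2 was higher and PATL1 lower with PKS5. PATL2 had 2312, 2615 and 4271 CPM with PKS5, against 859, 992 and 838 with SCAB1 and 514, 277 and 667 with SOS2, while PATL1 had 226, 184 and 484 CPM with PKS5, against 977, 1078 and 838 with SCAB1 and 1666, 1002 and 1822 with SOS2. For PATL2 the PKS5 libraries lay above all others (log2 contrast 2.30, SE 0.60, limma adjusted p = 0.00463), and for PATL1 below them (-2.04, SE 0.47, limma adjusted p = 0.00171). The call of PATL2 failed when PKS5 replicate 2 was left out (limma adjusted p = 0.0675), and that of PATL1 held in 16 of 16 alternatives. ACBP6, a cytosolic acyl-CoA-binding protein, had 556 ± 288 CPM with PKS5, 590.4 ± 412 with SCAB1 and 864 ± 308 with SOS2 (SD, n = 3 each). MAPR2, a relative of the progesterone-binding proteins of animals, had 710.2 ± 250.3, 704 ± 460.1 and 755 ± 431 CPM in the same order. Neither was called by the F test (limma adjusted p = 0.793 and 0.688), and LP1 is described above among secreted proteins.

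Smaller classes are given as single genes, of which SDH8, LRB1, SZF1 and FKBP12 were named after their values were seen. PSAO, a subunit of photosystem I, was well read throughout, with 4353, 2289 and 3739.6 CPM with PKS5, 4731, 2002 and 2122 with SCAB1 and 6783, 4611 and 5079 with SOS2, and a ratio of its highest to its lowest library of 3.39 (F test of limma, adjusted p = 0.772). TUB6, a beta-tubulin, was also level, at 230.5 ± 87.2, 209 ± 123 and 274 ± 126 CPM with PKS5, SCAB1 and SOS2 (SD, n = 3 each). CSI1, which ties cellulose synthase to microtubules, was not. It had 279, 159.8 and 279 CPM with SOS2, against 1458, 991 and 2087 with PKS5 and 3668, 5333 and 3813 with SCAB1 (log2 contrast -3.87, SE 0.48, limma adjusted p = 5.36e-07). SDH8, a subunit of succinate dehydrogenase, had 2526, 3092 and 2563 CPM with SOS2, against 805, 271 and 916 with PKS5 and 1629, 579 and 727 with SCAB1. LRB1, a BTB protein of light signalling, had 1891, 1632 and 2055 CPM with SOS2, against 547, 323 and 725 with PKS5 and 350.3, 574 and 317 with SCAB1. Both genes lay higher in every SOS2 library than in any other, and both were called (limma adjusted p = 0.0111 and 0.0207). The limma adjusted p of SDH8 and LRB1 was 0.112 and 0.128 when SOS2 replicate 2 was left out, 0.154 and 0.313 when SOS2 replicate 3 was, and 0.056 and 0.112 when SCAB1 replicate 1 was. It was also above the threshold for SDH8 with at least 100 reads (0.0674) and in distinct reads (0.396), and for LRB1 with relative log expression factors (0.0728). SZF1, a salt-inducible zinc finger protein, had 5626, 7513 and 6829 CPM with PKS5, against 675, 772 and 593 with SCAB1 and 1461, 697 and 1504 with SOS2, and each PKS5 library lay above all others (log2 contrast 3.03, SE 0.63, limma adjusted p = 0.000615). FKBP12, which binds the drug FK506, had 328 ± 149 CPM with PKS5, 749 ± 186 with SCAB1 and 681 ± 233 with SOS2 (SD, n = 3 each; F test, limma adjusted p = 0.0291, held in 6 of 16 alternatives).

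One of the 80 genes is the gene of a bait. SIP4 (AT2G30360) carries PKS5 among its synonyms and encodes the PKS5 kinase. It had 1659, 1648 and 1933 CPM with PKS5, 1183, 1416 and 987 with SCAB1 and 701, 426 and 926 with SOS2. Each PKS5 library was above all others and each SOS2 library below them, but the excess with PKS5 was not called (log2 contrast 1.09, SE 0.57, limma adjusted p = 0.183). The lower level with SOS2 was called (log2 contrast -1.60, SE 0.54, limma adjusted p = 0.0197). It did not pass when SOS2 replicate 1 or 2 was left out (limma adjusted p = 0.116 and 0.174), when PKS5 replicate 2 was (0.0644), or in distinct reads (0.714). Genes of the other baits were rare outside their own libraries, the SCAB1 gene having 34.5 CPM with SCAB1 at 0 h and more at 2 and 4 h, against at most 2.73 CPM elsewhere, and the SOS2 gene at most 6.66 CPM in any library.

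The most level preys were those with the smallest ratio of highest to lowest library in plain CPM. This order depends on the scaling and was not worked out with TMM. The TMM factor was 1.72 for SCAB1 at 0 h and 0.564 at 2 h, so TMM scaling widens the range of AT3G13350, the first gene below. AT3G13350 had 425, 454 and 469 CPM with PKS5, 356, 685 and 499 with SCAB1 and 529, 318 and 533 with SOS2, a highest library 2.16 times its lowest. AT3G03070 had 504, 318 and 402 CPM with PKS5, 587, 413 and 353 with SCAB1 and 705, 422 and 542 with SOS2, a ratio of 2.22. AT1G51650 had 565, 324 and 597 CPM with PKS5, 579.6, 326 and 302 with SCAB1 and 583, 236 and 202 with SOS2, a ratio of 2.95. AT1G51650 was lower with SOS2 in the contrast (log2 contrast -0.97, limma adjusted p = 0.0439), which held in 8 of 16 alternatives. AT3G13350, AT3G03070 and AT1G51650 averaged 9.75, 23 and 9.625 distinct reads, against a median of 38.1 over the 80 genes. These 3 genes have no descriptive name in the RefSeq table. With PIP3, PSAO, TUB6 and LCR69, described above, and AGT, a photorespiratory aminotransferase of peroxisomes, they make up the 8 most level genes. AGT had 547 ± 308 CPM with SOS2, against 796 ± 319 with PKS5 and 966 ± 159 with SCAB1 (SD, n = 3 each), and was lower with SOS2 (log2 contrast -1.23, limma adjusted p = 0.0182). It missed the threshold when SOS2 replicate 2 was left out (limma adjusted p = 0.0769), for library size alone (0.252) and in distinct reads (0.857), where the contrast was 0.03.

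**Figure D3:**
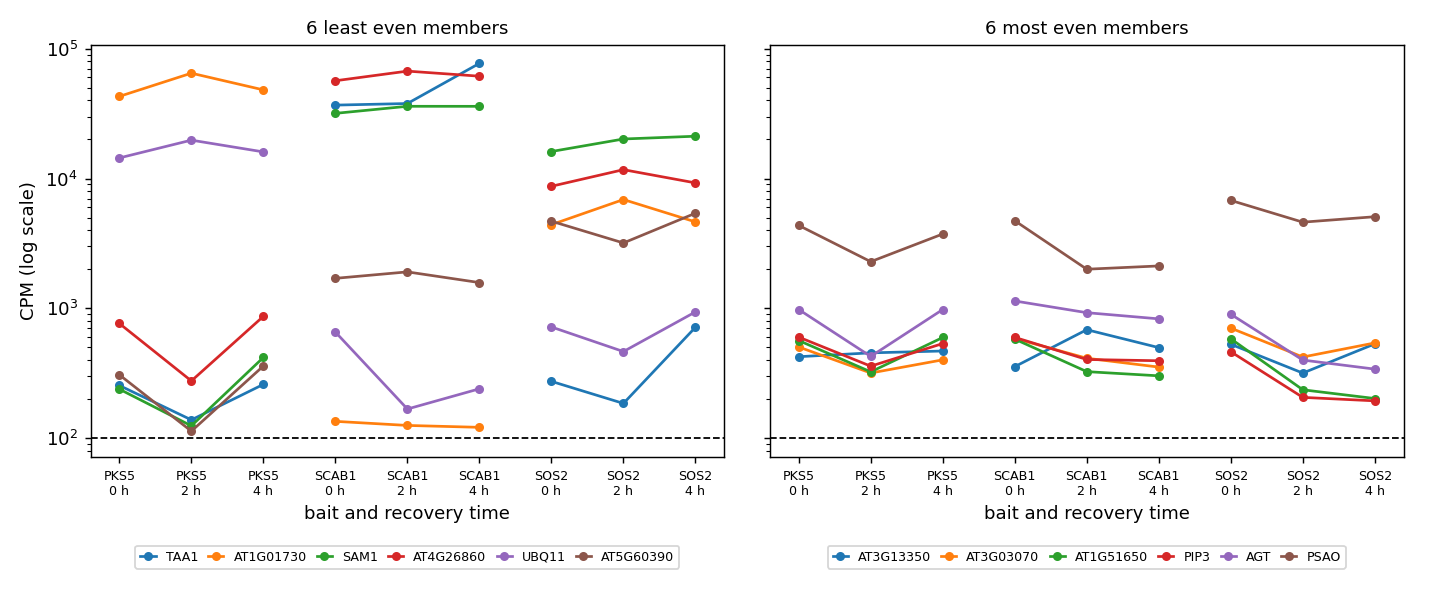
CPM on a log scale in the 9 libraries for the 6 least level (left) and 6 most level (right) of the 80 preys, with lines joining the recovery times of a bait and the dashed line at 100 CPM. On the left each gene is far higher with its highest bait than with its lowest, with TAA1 at 36743 CPM or more with SCAB1 and at most 715 CPM with PKS5 and SOS2. On the right each gene stays within a ratio of highest to lowest library of 3.39, though PSAO is higher in every SOS2 library than in any PKS5 library.

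The leading differences came from a few genes. SAM1, an S-adenosylmethionine synthetase, had 239, 125 and 419 CPM with PKS5, against 31743, 35983 and 35957 with SCAB1 and 16138, 20149 and 21164 with SOS2 (log2 contrast -6.71, SE 0.50, limma adjusted p = 4.3e-10). AT4G26860 had 765, 276 and 868 CPM with PKS5, against 56586, 67128 and 61368 with SCAB1 and 8713, 11697 and 9249.7 with SOS2, and a log2 contrast of -5.36 (SE 0.51, limma adjusted p = 1.71e-08). Both were thus lowest with PKS5 and far above the limit with the other baits. AT1G01730 was the reverse. It had 42885, 64725 and 48133 CPM with PKS5, against 135, 125 and 121 with SCAB1 and 4412, 6887 and 4632 with SOS2, a log2 contrast of 5.99 (SE 0.70, limma adjusted p = 4.45e-07).

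UBQ11, a polyubiquitin gene, had 14399, 19742 and 16024 CPM with PKS5, against 657, 168 and 240.2 with SCAB1 and 719, 465 and 939 with SOS2 (log2 contrast 5.36, SE 0.64). AT5G13980 had 18333, 14077 and 12283 CPM with PKS5, against 592, 1082 and 1405 with SCAB1 and 1762, 2258 and 1542 with SOS2 (3.52, SE 0.71). Both stood apart in all 3 PKS5 libraries, with the reservation that polyubiquitin copies are near-identical and may share reads. TSA1, a TSK-associating protein, had 1395, 815 and 1899 CPM with SOS2, against 3762, 4147 and 5573 with PKS5 and 12384, 14789.8 and 13125 with SCAB1 (-3.03, SE 0.58, limma adjusted p = 0.000161). AT5G60390 had 4690.1, 3189 and 5404 CPM with SOS2, against 308, 113 and 359.9 with PKS5 and 1703, 1909.7 and 1579.8 with SCAB1 (2.34, SE 0.53, limma adjusted p = 0.000974), which was not called in distinct reads (limma adjusted p = 0.098). The remaining gene among the 10 best read on average, AT5G05360, was lower with SCAB1, with 1205, 1146 and 1177 CPM with SCAB1, against 4851, 5866 and 6703 with PKS5 and 3754, 5515 and 4633 with SOS2 (-1.78, SE 0.55, limma adjusted p = 0.0136). It did not pass when SCAB1 replicate 1 or SOS2 replicate 2 was left out (limma adjusted p = 0.158 and 0.0695).

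The remaining genes, named after their values were seen, mostly have no descriptive name in the RefSeq table, and no role is given for them. Several were higher with SCAB1. AT1G29040 had 4289.6, 5252 and 4242 CPM with SCAB1, against 422, 342 and 434 with PKS5 and 979, 558 and 1206 with SOS2 (log2 contrast 3.32, SE 0.59, limma adjusted p = 8.88e-05). AT5G42530 had 4032, 3384 and 3075 CPM with SCAB1, against 2349, 574 and 849 with PKS5 and 1252, 596 and 299 with SOS2 (2.51, SE 0.50, limma adjusted p = 0.000295). Every SCAB1 library lay above all others in both, and in AT3G15450, AT2G45180, AT1G67865, AT1G66820, AT5G48490, AT5G53310 and MLP34, a relative of the major latex proteins. AT3G15450 had 4986, 3845 and 2975 CPM with SCAB1, against 1822, 375 and 669.5 with PKS5 and 1767, 1433 and 555 with SOS2 (2.42, SE 0.51, limma adjusted p = 0.000546). These SCAB1 contrasts held in all 16 alternatives for AT1G29040, AT5G42530, AT3G15450, AT2G45180 and AT1G67865. MLP34 held in 10 of 16, and missed the threshold when SCAB1 replicate 2 or 3 was left out (limma adjusted p = 0.122 and 0.0853). AT5G53310 did so too (0.0615 and 0.0567).

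Higher with SOS2 were AT1G07930, with 2846, 2215 and 2954 CPM with SOS2, against 421, 164 and 390.04 with PKS5 and 1039, 705 and 712 with SCAB1, and AT4G23670, with a SOS2 mean of 1995 ± 323 CPM, against 428 ± 227 with PKS5 and 424 ± 251 with SCAB1 (SD, n = 3 each). The SOS2 libraries lay above all others in both, with log2 contrasts of 2.01 and 1.99 (limma adjusted p = 0.00162 and 0.000795). The first missed the threshold when SOS2 replicate 3 was left out (limma adjusted p = 0.0537), and the second in distinct reads (0.915). The loci numbered next to AT1G07930, AT1G07920 and AT1G07940, averaged 1087 and 1080 CPM over all libraries. Their mean distinct reads were 55.9 and 54.4, against 54.6 for AT1G07930. Whether these loci or AT5G60390 share reads with AT1G07930 was not tested. The higher levels of AT1G07930 and AT5G60390 with SOS2 may thus not be independent. AT1G51402 was higher with PKS5, with 1008, 513 and 535 CPM with PKS5, against 468, 122 and 151 with SCAB1 and 459, 195 and 139.6 with SOS2 (log2 contrast 1.74, limma adjusted p = 0.00196), but not in distinct reads (limma adjusted p = 0.387). AT1G32530 was lower with SCAB1, with 273, 344 and 195 CPM with SCAB1, against 1319.6, 621 and 1286 with PKS5 and 1439, 1147 and 1208 with SOS2 (log2 contrast -1.73, limma adjusted p = 0.00382), a result not passed when SCAB1 replicate 1 was left out (limma adjusted p = 0.0849).

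ATMG00030, a mitochondrial locus, had 913, 499.96 and 1019 CPM with PKS5, against 4351, 2675 and 4277 with SCAB1 and 2094, 2539 and 5473 with SOS2, all PKS5 libraries being below the others (log2 contrast -2.06, SE 0.54, limma adjusted p = 0.00466, and 0.374 in distinct reads). AT2G15960 and AT3G10860 had the same order, with log2 contrasts of -1.99 and -1.28 for PKS5 (limma adjusted p = 0.00158 and 0.0157), held in 15 of 16 and 9 of 16 alternatives. Weak calls were those of AT2G15580, lower with PKS5 (limma adjusted p = 0.0338, held in 4 of 16 alternatives), and AT1G15120, higher with PKS5 (0.0222, held in 11 of 16). The F test did not call AT1G25275, AT2G10940, AT4G37830, AT5G57290, AT5G57760 or ECS1. Of these AT1G25275 was the best read, with 4733, 2453 and 2986 CPM with PKS5, 4405, 1327 and 1654 with SCAB1 and 4851, 4330.1 and 1296 with SOS2, and its libraries overlapped between baits (F test, limma adjusted p = 0.713).

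Genes that were not called over baits are set beside the called ones here without a test. CPM and the 0 h values come from the same reads as the F test. Differences in them may thus follow from the call itself and are not read as a trait of the genes. The same split was not made over all genes tested. The 33 not called had a median of 472 CPM over the 9 libraries and the 47 called a median of 1272. Gene spans, taken from RefSeq's table for TAIR10.1, had a median of 1378 bp in those not called and 1842 bp in those called. The 0 h library was the highest with every bait for 27 of the 33 genes not called, and for 12 of the 47 called.

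Recovery time was the other variable in the labels. By plain CPM many of the 80 genes were lower after recovery, with median ratios of the 2 and 4 h mean to the 0 h value of 0.707 with PKS5, 0.607 with SCAB1 and 0.666 with SOS2. The 0 h library was the highest with all 3 baits for 39 of the 80 genes, 48.8%, against 33.2% of all genes tested. Bait by bait it was the highest for 48 of the 80 genes with PKS5 (42.5% of all genes tested), 59 with SCAB1 (86.9%) and 51 with SOS2 (84%), so that the last pair of shares, 73.8% and 63.7% of the 80 genes, lay below those of all genes. MT1A, for example, had 349.6 and 662 CPM at 2 and 4 h with PKS5, against 2134 at 0 h, and 709.6 and 864 CPM with SCAB1, against 2903 at 0 h. The fit with TMM scaling and bait as a block called 0 of 80 genes (percent called 0 of all genes tested in either direction), with 26 of the 80 and 489 of all 3811 at an unadjusted p under 0.05 and a smallest adjusted p of 0.0949 among the 80.

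The direction of this comparison depended on the scaling. The median log2 difference of 2 and 4 h from 0 h was 0.50 over the 80 genes and 0.07 over all genes tested with TMM, and -0.73 and -1.21 with library size alone. With library size alone limma called 28 of the 80 genes lower and none higher, 35%, against 31.5% of all genes tested lower and 0% higher. With distinct reads the medians were 0.04 and 0.04. The 80 genes thus lay above all genes tested in the first 2 fits and not in the third. MT1A had the lowest estimate with TMM, -0.60 (SE 0.39, adjusted p = 0.561 by limma), and AT5G13980 the highest, 1.59 (SE 0.42, adjusted p = 0.129). Whether the effect of recovery differed between baits was tested as an interaction. Limma called 0 of the 80 genes and 0 of all 3811, with 0 and 185 at an unadjusted p under 0.05.

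**Figure D4:**
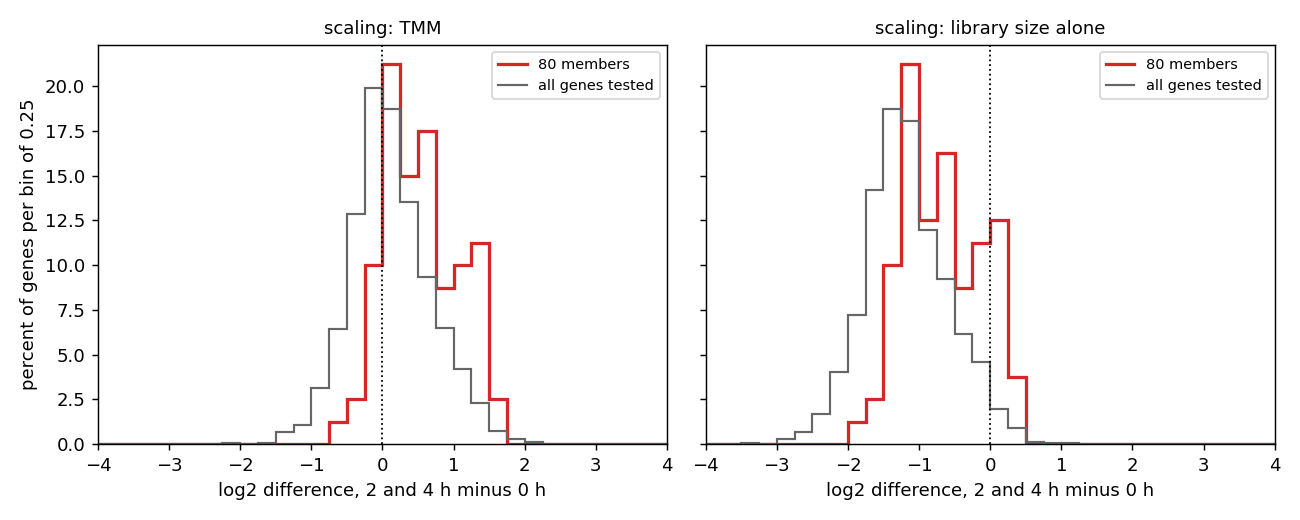
Distribution of the log2 difference of 2 and 4 h from 0 h, as the percent of genes in bins of 0.25, for the 80 preys (red) and all genes tested (grey), with TMM scaling (left) and library size alone (right). The medians are 0.50 for the preys and 0.07 for all genes on the left, and -0.73 and -1.21 on the right.

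A second column of the deposited table is headed as unique reads and is called distinct reads here. Its exact definition is not stated in the sources used here, and it could be used in 8 libraries. The median of the 80 genes was 38.1 distinct reads per library, with gene means over the 8 libraries from 6.38 to 138. It was 16.8 in the 225 other genes with a mean CPM as high as the lowest of the 80, and 4 in all genes tested. In their lowest library 4 of the 80 genes had fewer than 5 distinct reads. They were AT5G56040 with 1, AT1G15120 with 2, TAA1 with 3 and GRP9 with 4. At least 10 distinct reads in each of the 8 libraries were found for 64 of the 80 genes (80%), against 71 of those 225 (31.6%). Of the 20 genes with most distinct reads in the whole table, 13 were among the 80 and 5 among the 12 left out, and of the top 100 genes 42 and 10 were. These values come from the same libraries as the limit on reads, so they describe the genes and do not support the choice.

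AT3G15450 had the most, 138 on average, followed by TCTP with 123, SAM1 with 122, DELTA-TIP with 117, GRP7 with 108 and PSAO with 103. At the other end were AT5G56040, a receptor kinase named SKM2, with 6.38, and GRP9 with 7 on average, both below the median of other well read genes. Of the 80 genes 5 averaged under 10. Distinct reads, not divided by a library total, varied less between libraries than CPM did. The highest library exceeded the lowest by a median of 2.19-fold in distinct reads and 6.55-fold in CPM over the same 8 libraries. The ratio was smaller in distinct reads for 75 of the 80 genes. These measures were not scaled alike. AT1G01730 had 60, 55 and 53 distinct reads with PKS5 and 10 and 10 with SCAB1, and its 1459 reads per distinct read were the most of the 80 genes. TAA1 had 55 and 40 distinct reads with SCAB1, against 5, 3 and 4 with PKS5 and 6, 8 and 6 with SOS2. For AT2G10940 reads per distinct read were lowest, at 10.8.

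**Figure D5:**
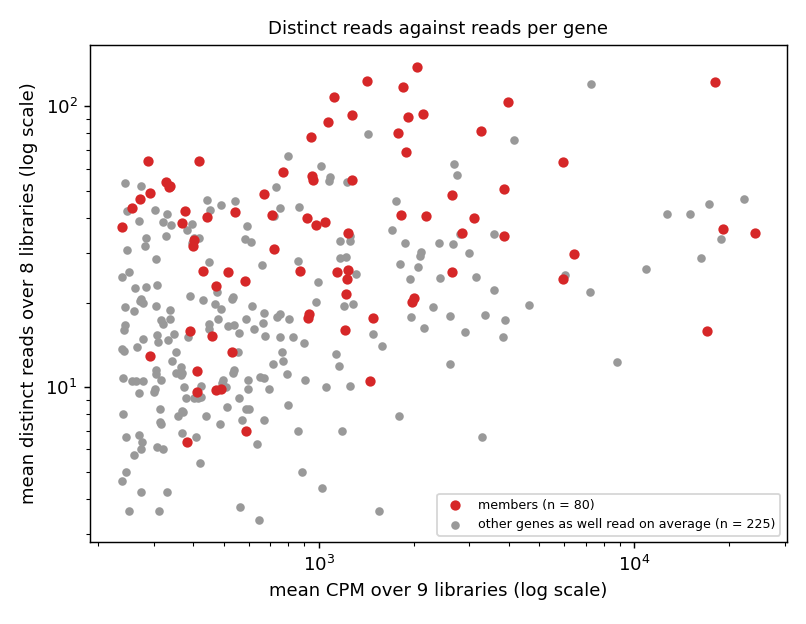
Mean distinct reads over 8 libraries against mean CPM over 9 libraries, both on log scales, for the 80 preys (red) and the 225 other genes that were as well read on average (grey). The red points have a median of 38.1 distinct reads and the grey ones a median of 16.8.

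Median gene span was shorter among the 80 genes. It was 1540 bp for the 79 found in the RefSeq table, against 2104 bp in the 225 other well read genes, 2010 bp in genes tested and 2242 bp in the whole table. Spans ran from 418 bp for MT1A, 427 bp for AGP21 and 484 bp for MAPR2 to 6261 bp for AT5G13980 and 8520 bp for CSI1. Span includes introns and is not the length of the cloned insert, and since a read starts where vector and insert meet, reads were not divided by length.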

How the data were processed

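Inserts of the prey plasmids were sequenced from 9 yeast two-hybrid libraries, 3 for each bait. The authors deposited 1 table with read counts and distinct read counts per gene, per the file headers. The table also marks genes as not detected, and these cells were taken as 0. Per the submitters' processing notes CASAVA, cutadapt 1.18 and HISAT2 were used with the TAIR10 genome, and how reads of similar genes were divided was not stated in the sources used here. The distinct read column of SCAB1 at 4 h equals that of SCAB1 at 2 h in 10224 of 10224 cells and was not used.

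From the counts, CPM was each gene's reads over the column total times 1000000. Genes were tested with limma 3.58.1 (R 4.3.3) on voom weights with an offset of 0.5 reads, TMM factors trimming 30% of log ratios and 5% of means, and robust empirical Bayes moderation. Genes entered the test with roughly 10 reads, scaled to a library of median size, in 3 or more libraries and a total of 15 or more. This kept 3811 genes, among them the 80 members. Adjusted p-values follow Benjamini and Hochberg over these, with a threshold of 0.05. All 9 libraries entered 1 fit, with bait as the group. Recovery was tested as 2 and 4 h against 0 h with bait as a block. The fits were tested on simulated data with the same mean profile in every library, apart from genes raised with a bait. Those data lacked the spread of scaling factors seen here, so they could not test the scaling. TMM factors ran from 0.438 to 2.40. Deposited values hold whole reads beside the marks for genes not detected. Because of those marks the columns were not handled as plain counts and count models were not used. This was a choice of handling, as the marks were taken as 0.

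Members and protein classes were chosen with earlier results of these data known. Of 10224 genes, 10201 were found in the RefSeq table. Genes were named by rule if they were among the 10 best read on average, the 8 most level, the 3 furthest in each direction with a bait, in a class with at least 3 members, or next to the limit, and others after their values were seen. Protein features were not computed, as no protein table was used here. Alternatives covered scaling, filters, distinct reads, the limit on CPM, a block for replicate number and leaving out each library.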

Additional observations from a re-analysis of the deposited data

How the results depend on the processing

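Alternative values of genes named for the leading bait differences kept their direction in every alternative run. Their side of the threshold was kept in 279 and lost in 6. These 6, by limma adjusted p, were UBQ11 with SCAB1 in distinct reads (0.0872), AT5G13980 with SCAB1 when SCAB1 replicate 1 or SOS2 replicate 2 was left out (0.172 and 0.0654), SAM1 with SOS2 when SOS2 replicate 2 or 3 was (0.0598 and 0.0731), and AT5G60390 with SOS2 in distinct reads (0.098). Counts of calls moved with the limit on CPM by construction, as it changes the genes counted. A limit of 50 CPM gave 90 calls by the F test and 65, 68 and 56 for PKS5, SCAB1 and SOS2, and a limit of 200 CPM gave 23 and 14, 19 and 8, against 47 and 32, 34 and 24 at 100 CPM. Distinct reads gave 19 calls for PKS5 and 20 for SCAB1, and a filter of at least 100 reads gave 55 for SOS2. For 2 and 4 h against 0 h the count of 0 became 28 with library size alone, 25 when the library size left out genes that took over 5% of a library, and 6 when genes needed 100 reads. The cause was not tested. With libraries left out in turn the F test gave 31 to 50 calls (31 without SCAB1 replicate 3), PKS5 21 to 32 (21 without PKS5 replicate 3), SCAB1 23 to 43, SOS2 14 to 29 (14 without SOS2 replicate 2), and recovery 0 to 8 (8 without PKS5 replicate 3). A limit on TMM-scaled CPM would have taken 119 genes, 79 of them shared (66.4% of that list and 98.8% of the 80), and the same number of genes by the lowest share of distinct reads would have shared 40 (50% of each). Both lists were added after seeing the data. Protein features were not run. Depth limits the low end, since 3 reads were up to 1.83 CPM.

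Replicate numbers are shared between baits and stand for recovery times. Samples of one number correlated in their deviations from the bait means by -0.03 to 0.15, with 3 of 9 pairs over 0.1, against -0.20 to 0.16 and 2 of 18 pairs for different numbers, so the numbers were not taken as pairs. With the replicate block the F test called 50 of the 80 genes, and the bait contrasts called 36 (PKS5), 41 (SCAB1) and 32 (SOS2). Recovery without the bait block called 0.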
